A study of Mus musculus with 6 samples.

Results

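The genes described here encode the heat shock protein families HSP70 with HSP110, HSP90, the mitochondrial chaperonin HSP60 with HSP10 and the small heat shock proteins, the J-domain proteins of the DNAJA, DNAJB and DNAJC classes, and the subunits of the cytosolic chaperonin TRiC. They were chosen by symbol, as names beginning with Hspa, Hspb, Hspd, Hspe, Hsph, Hsp90, Dnaja, Dnajb, Dnajc or Cct and a digit, and names holding -ps, which mark pseudogenes, were left out. This gave 81 of the 26529 genes in the table. Of them 63 reached at least 1 RPKM (reads per kilobase of exon, scaled to the total of assigned reads) in at least 3 of the 6 libraries and were tested, and 18 did not. None of the tested genes passed this filter through 1 group alone. The prefixes also caught Hspbp1, a nucleotide exchange factor of HSP70, and Hspbap1, and they missed Tcp1, which encodes the first TRiC subunit.

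The cells were macrophages grown from the bone marrow of 8-week-old WT C57BL/6 mice and kept in 20 ng/ml M-CSF with 10 ng/ml RANKL, which turns such cells into osteoclasts. Both groups had the same strain, genotype and cytokines. The group labelled OCP (osteoclast precursors) was taken on day 3 and the group labelled OC (osteoclasts) on day 6, with 3 libraries each, so the comparison asks how transcripts differ between these stages, and stage and time in culture cannot be told apart. Since no label ties a replicate to its own mouse or culture, p-values measure the spread between these libraries, which may be technical.

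Library totals lay between 33219178 and 42121216 reads assigned to genes. The libraries labelled OC held less of the defining osteoclast transcripts than those labelled OCP: all 10 osteoclast markers tested, among them Acp5 and Ctsk, were lower, with a summed level of 2729.8 to 2815 RPKM against 5104 to 5261 RPKM in OCP. Of 8 macrophage markers 6 were higher and 2 lower, with summed levels of 1532 to 1598 RPKM in OC and 1379.8 to 1449 RPKM in OCP. Neutrophil markers summed to 34.5 to 38.1 RPKM in OCP and 48.9 to 53.3 RPKM in OC, with 3 of 3 tested genes higher. B cell, T and NK cell, stromal, endothelial and erythroid markers each summed to less than 3 RPKM in every library. Immediate early genes, which respond to handling as well as to signals, rose in 10 of 11 tested cases and summed to 171 to 187 RPKM in OCP and 385 to 403 RPKM in OC. The part of these differences in the results below was not tested. The labels were used as given although the osteoclast markers run against them. Whether the labels of both groups were exchanged was not tested, and an exchange would turn every direction given below.

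Chaperones keep other proteins folded. HSP70 proteins bind and release short hydrophobic stretches in a cycle driven by ATP, J-domain proteins bring them clients and stimulate the ATPase, and exchange factors such as HSP110 reset the cycle. HSP90 takes partly folded clients such as kinases and receptors, and TRiC encloses actin and tubulin while they fold, which makes it a supplier of the cytoskeleton that osteoclasts build their resorbing ring from. Cytosolic chaperone genes are classical targets of the factor HSF1, and chaperones of the endoplasmic reticulum (ER) are targets of the unfolded protein response, which also serves cells with a large load of secreted proteins.

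Of the 63 tested genes, 11 rose and 24 fell in the libraries labelled OC by limma at an adjusted p under 0.05, and 28 did not pass. Over all 12301 genes tested, 23.5% rose and 32.1% fell. The shares for the chaperones were 17.5% and 38.1%, near that background. Most changes were small. At least 1.5-fold ratios of means were seen for 3 genes that rose (Hspa5, Hspa1b and Hsph1) and 1 that fell (Dnajc11), where the shares over all tested genes were 10.9% and 8.21%. The median log2 fold change of the tested chaperones was -0.08, against -0.05 over all genes tested. All OC values lay above all OCP values in 12 genes and below them in 27, against 26.7% and 36.0% of all tested genes. On reads recovered from the table (voom), the split was 17 higher and 22 lower of 69, against 4266 and 3961 of all 15802 genes tested. Without OCP replicate 3, 15 of 63 fell, against 3259 of all 12090 genes tested. Together the chaperone genes took 2.61% to 2.73% of the assigned reads in OCP and 2.74% to 2.88% in OC. Hsp90ab1 alone gave 29.8% to 33.9% of their summed RPKM in OCP and 26.0% to 30.3% in OC.

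**Figure D1:**
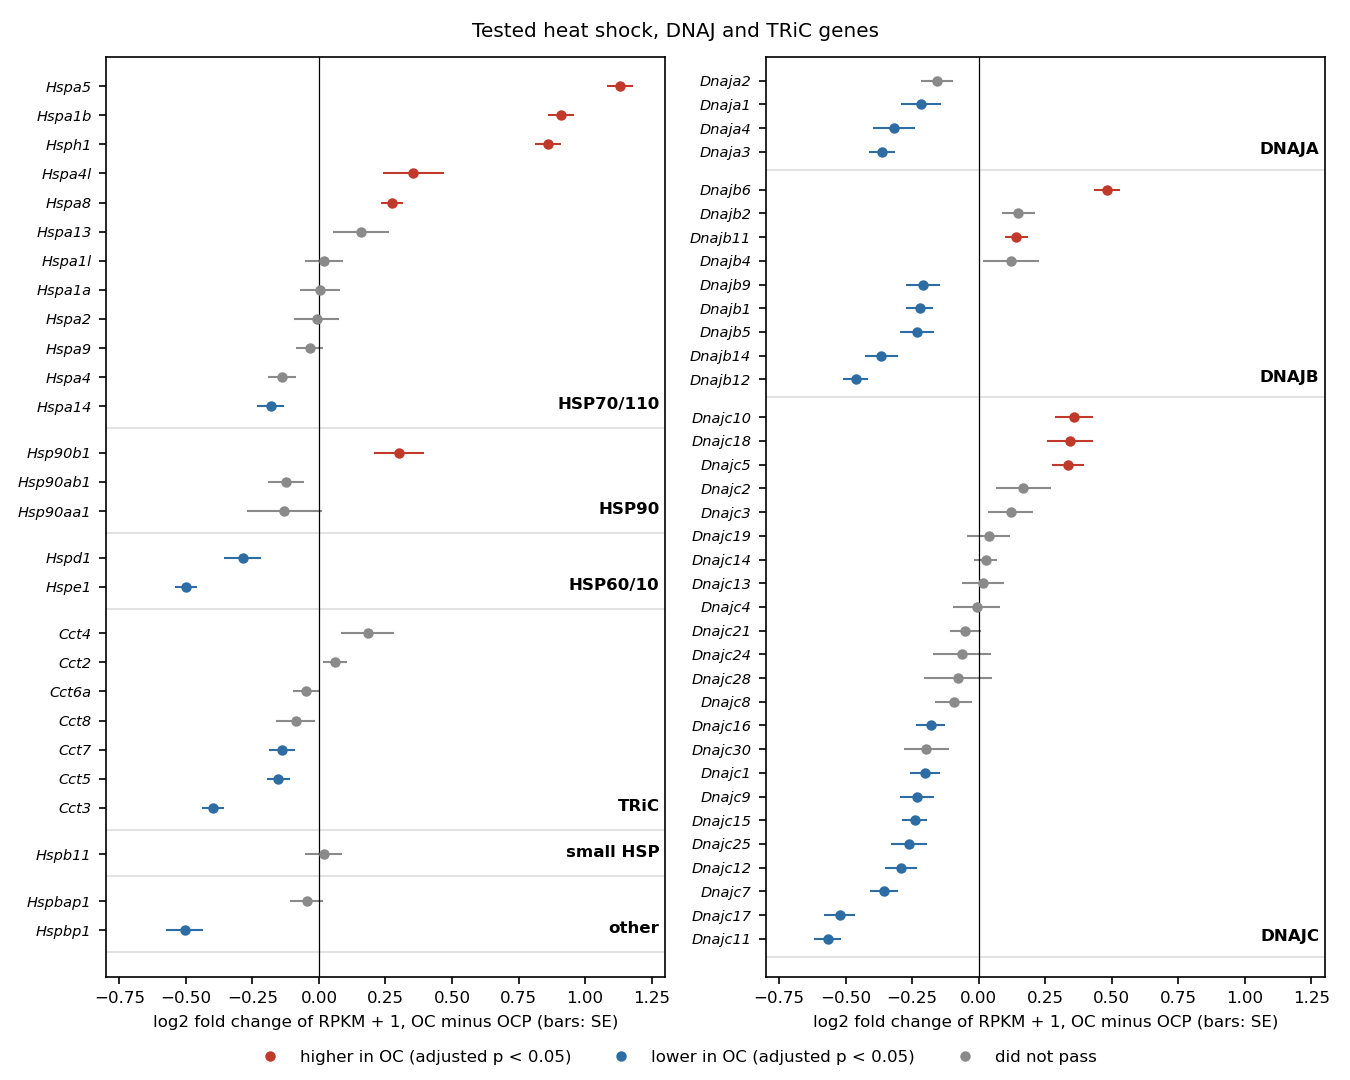
Log2 fold change of RPKM + 1 (x axis, OC minus OCP, 3 libraries per group) for each of the 63 tested genes, grouped by family, with bars for the SE of the limma fit and colours for the call at an adjusted p under 0.05. Hspa5, Hspa1b and Hsph1 lie far to the right at 1.13, 0.91 and 0.86, and most DNAJ genes lie to the left of 0.

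The 3 tested chaperone genes with the largest rises were HSP70 and HSP110 genes. Hspa5 encodes BiP, the HSP70 of the ER lumen, and lies at chr2:34771970-34777547 (GRCm38, plus strand). It had OCP values of 402, 373 and 395 and OC values of 846, 827 and 892 RPKM. The groups were far apart, and the level in OC was 2.19 times that in OCP (log2 fold change 1.13, SE 0.05, adjusted p = 1.1e-06, limma). Hspa8, the constitutive cytosolic HSP70, was the most abundant of the family, with OCP values of 776, 743 and 738 and OC values of 897, 931 and 899.9 RPKM. All OC libraries were above all OCP libraries, a rise of 1.21 times (log2 fold change 0.27, SE 0.04, adjusted p = 0.00078). Hsph1, a cytosolic HSP110 that acts as exchange factor for HSP70, had OCP values of 15.5, 14.3 and 15.1 and OC values of 27.6, 27.8 and 28.7 RPKM. It rose 1.87 times with no overlap (log2 fold change 0.86, SE 0.05, adjusted p = 4.4e-06). The related Hspa4l had OCP values of 10.5, 7.69 and 9.01 and OC values of 11.2, 10.8 and 13.4 RPKM, with a single OC library well above the others. It rose by 0.35 on the log2 scale (SE 0.11, adjusted p = 0.031), a call that was lost without OCP 2, OCP 3, OC 1 or OC 3 (adjusted p from 0.052 to 0.082) and when low genes were kept in (adjusted p = 0.086).

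Of 12 tested HSP70 and HSP110 genes, 5 rose (41.7%) and 1 fell (8.33%), against 23.5% and 32.1% of all tested genes. Their median log2 fold change was 0.09, against -0.05 over all genes. The fall was that of Hspa14, a ribosome-associated HSP70, from 6.85 ± 0.195 RPKM to 5.92 ± 0.13 RPKM (log2 fold change -0.18, SE 0.05, adjusted p = 0.017, SD with n = 3 per group). It did not pass without OCP 3 or OC 3 (adjusted p from 0.055 to 0.061) or under TMM factors (adjusted p = 0.053). Hspa4, the third HSP110-type gene, had 113 ± 6.11 RPKM (OCP) and 102 ± 3.62 RPKM (OC) and did not pass (adjusted p = 0.055), although it did as lower without OCP replicate 2 (adjusted p = 0.021) and with a mean of at least 5 RPKM (adjusted p = 0.046). Hspa9, the mitochondrial HSP70 that pulls imported proteins into the matrix, was abundant and nearly level at 381 ± 20.8 RPKM (OCP) and 371 ± 8.44 RPKM (OC) (adjusted p = 0.59). Hspa13 had 2.42 ± 0.384 RPKM (OCP) and 2.81 ± 0.365 RPKM (OC), Hspa2 1.38 ± 0.215 RPKM (OCP) and 1.36 ± 0.094 RPKM (OC) and Hspa1l 1.52 ± 0.0207 RPKM (OCP) and 1.56 ± 0.165 RPKM (OC), with no call for any of them except Hspa13 as higher by voom (adjusted p = 0.044). Gm10501 on the other strand overlaps 71.9% of the exon length of Hspa1l. The reads of Hspa1l and Gm10501 were nearly the same, from 136 and 136 in OCP 3 to 124 and 117 in OC 2. Hspa12a and Hspa12b stayed under 0.1 RPKM in every library and were not tested.

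Hspa1a and Hspa1b are neighbouring, near-identical genes for the stress-inducible HSP70, the classical readout of a heat shock response. Over a stretch of 2201 bases their transcripts are 99.2% identical. Their 250 bases upstream of the RefSeq start site (GRCm38.p6) differ at 3 positions and are shown because the measured values of the pair parted. Both are given 5′ to 3′ on the minus strand with the differing bases in capitals.
Hspa1a, chr17:34972157-34972406: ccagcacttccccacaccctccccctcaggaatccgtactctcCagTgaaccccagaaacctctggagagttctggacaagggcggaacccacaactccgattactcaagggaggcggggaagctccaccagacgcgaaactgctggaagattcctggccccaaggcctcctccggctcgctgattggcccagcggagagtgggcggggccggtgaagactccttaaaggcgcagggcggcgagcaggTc
Hspa1b, chr17:34959239-34959488: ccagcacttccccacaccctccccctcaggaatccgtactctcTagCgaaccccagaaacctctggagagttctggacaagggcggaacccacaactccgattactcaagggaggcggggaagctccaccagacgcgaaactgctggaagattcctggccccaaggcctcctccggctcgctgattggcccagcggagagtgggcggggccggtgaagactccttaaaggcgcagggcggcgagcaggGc

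Hspa1b had OCP values of 7.44, 8.00 and 7.79 and OC values of 15.2, 15.3 and 15.7 RPKM. Each OC library was well above each OCP library, and the ratio of means was 1.99 (log2 fold change 0.91, SE 0.05, adjusted p = 3.5e-06, limma). Hspa1a had OCP values of 4.06, 4.73 and 3.95 and OC values of 4.48, 4.28 and 3.997 RPKM, with overlapping groups (log2 fold change 0.00, SE 0.07, adjusted p = 0.98). The difference between both genes was not tested. How reads that map to both copies were counted is not stated in the labels or headers, and reads may be split between them. Hspa1a also shares 564 exon bases with Gm20481 on the other strand, which had 7.13 RPKM in OCP and 5.25 RPKM in OC on average.

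The values of Hspa8 carry a similar limit. Of its longest transcript, 81.1% has a copy of 99.7% identity in the processed pseudogene Gm15459 on chromosome 5. This pseudogene had OCP values of 143, 147 and 148 and OC values of 406, 400.5 and 409 RPKM, a ratio of 2.77 (log2 fold change 1.47, SE 0.04, adjusted p = 5.3e-08), and it passed under all 14 alternatives run. The log2 fold change of Hspa8 itself was 0.27, and the difference between them was not tested. Its reads numbered 11726, 11330 and 10540 in OCP and 27578, 25823 and 30284 in OC. Gm26825, a gene over the same bases on the other strand, held nearly the same reads, 27595, 25827 and 30296 in OC. Whether these reads come from Hspa8, Gm15459 or Gm26825 cannot be told apart. Another Hspa8 pseudogene, Gm8355, rose from 94.6 ± 5.22 RPKM to 129 ± 7.10 RPKM, while Gm8337 had 4.84 ± 0.139 RPKM (OCP) and 4.96 ± 0.76 RPKM (OC) and did not pass (adjusted p = 0.86). These pseudogenes were chosen after their values were seen.

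**Figure D2:**
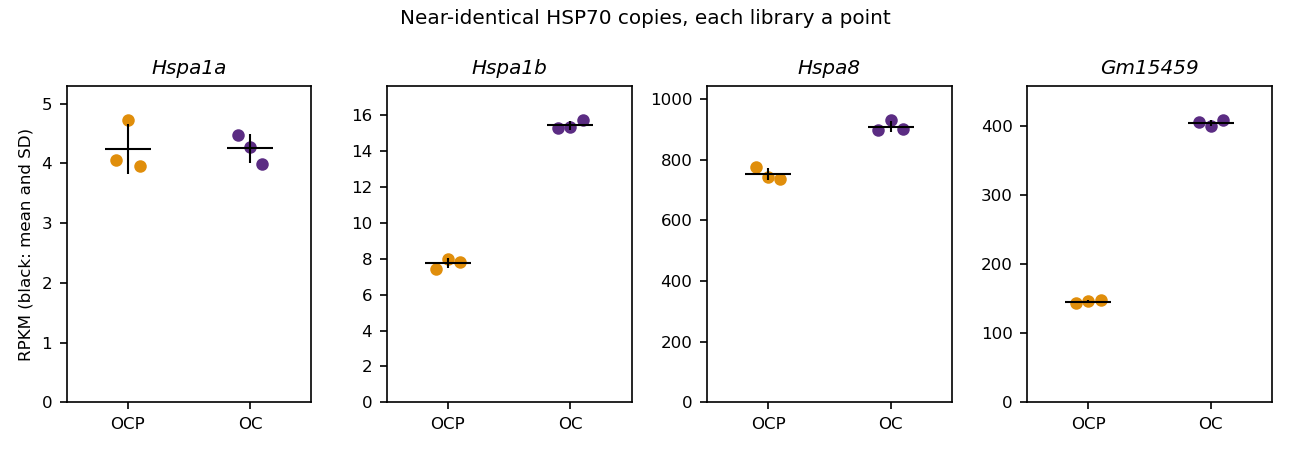
RPKM (y axis, from 0) of 2 pairs of near-identical genes in each library, with OCP and OC on the x axis and black marks for the mean and SD of 3 libraries. Hspa1b and Gm15459 lie clearly higher in OC, Hspa8 by less, and the Hspa1a points overlap.

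Of 3 HSP90 genes 1 rose, the ER member, where 23.5% of all tested genes rose and 32.1% fell. Hsp90b1, which encodes GRP94, the HSP90 of the ER lumen needed for integrins and Toll-like receptors, had OCP values of 736, 627 and 704 and OC values of 759, 833 and 960.3 RPKM. The OC libraries were spread widely above the OCP libraries (log2 fold change 0.30, SE 0.09, adjusted p = 0.028, limma). The call was lost without OCP 2, OCP 3, OC 2 or OC 3 (adjusted p from 0.055 to 0.081), after quantile normalization (adjusted p = 0.088) and when low genes were kept in (adjusted p = 0.077). 1810014B01Rik on the other strand overlaps 10.3% of the exon length of Hsp90b1 and had 300 RPKM in OCP and 388 RPKM in OC on average. Gm15344 and Gm25745 on the same strand share 84 and 133 exon bases with Hsp90b1. They had 791 and 9007 RPKM in OCP and 981 and 10319 RPKM in OC on average. Hsp90ab1, the constitutive cytosolic HSP90 and the most abundant gene of all those described here, had OCP values of 2317, 2551 and 2379 and OC values of 2177, 2434 and 2052 RPKM. The groups overlapped (log2 fold change -0.12, SE 0.07, adjusted p = 0.16), and the gene passed as lower without OC replicate 2 (adjusted p = 0.029). Hsp90aa1, the inducible cytosolic form, had OCP values of 391, 285 and 342 and OC values of 269.5, 301 and 358 RPKM. Its spread within each group was larger than the difference between them (log2 fold change -0.13, SE 0.14, adjusted p = 0.47). Hsp90aa1 shares 68.7% of its transcript with the pseudogene Gm12346 at 99.5% identity, which had 27.3 ± 4.33 RPKM (OCP) and 21.8 ± 3.64 RPKM (OC).

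Of 13 HSP90 cochaperones, listed as partners outside the chosen genes, 2 rose (15.4%) and 5 fell (38.5%), against 23.5% and 32.1% of all tested genes. The falls numbered 3 under TMM factors, after quantile normalization, when low genes were kept in, and without OCP 2, OCP 3 or OC 3, with the calls of Cdc37 and Fkbp8 lost in each. Fkbp5, an immunophilin and a known glucocorticoid target, rose from 2.19 ± 0.164 RPKM to 6.44 ± 0.362 RPKM (log2 fold change 1.22, SE 0.07, adjusted p = 4.0e-06), and Ppid, the cyclophilin 40 gene, from 8.50 ± 0.769 RPKM to 12.0 ± 0.825 RPKM. Fkbp4 fell from 126 ± 5.77 RPKM to 101 ± 5.52 RPKM and Ahsa1, the activator of the HSP90 ATPase and the most abundant of the list, from 279 ± 3.56 RPKM to 226 ± 6.85 RPKM. Of 3 tested heat shock factor regulators 0 passed by limma and 0 by voom, and 2, Hsf1 and Hsbp1, had an unadjusted p under 0.05. Hsf1 had 7.94 ± 0.724 RPKM (OCP) and 6.73 ± 0.743 RPKM (OC) (adjusted p = 0.079) and Hsf2 10.6 ± 0.907 RPKM (OCP) and 9.46 ± 0.71 RPKM (OC) (adjusted p = 0.12). Hsf1 passed as lower without OCP replicate 1 (adjusted p = 0.031) and without OC replicate 3 (adjusted p = 0.047), and Hsf2 without OCP replicate 2 (adjusted p = 0.036). The most abundant gene of the regulator list, Hsbp1, whose product binds HSF1, had 33.3 ± 0.474 RPKM (OCP) and 30.8 ± 1.38 RPKM (OC) (adjusted p = 0.079).

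**Figure D3:**
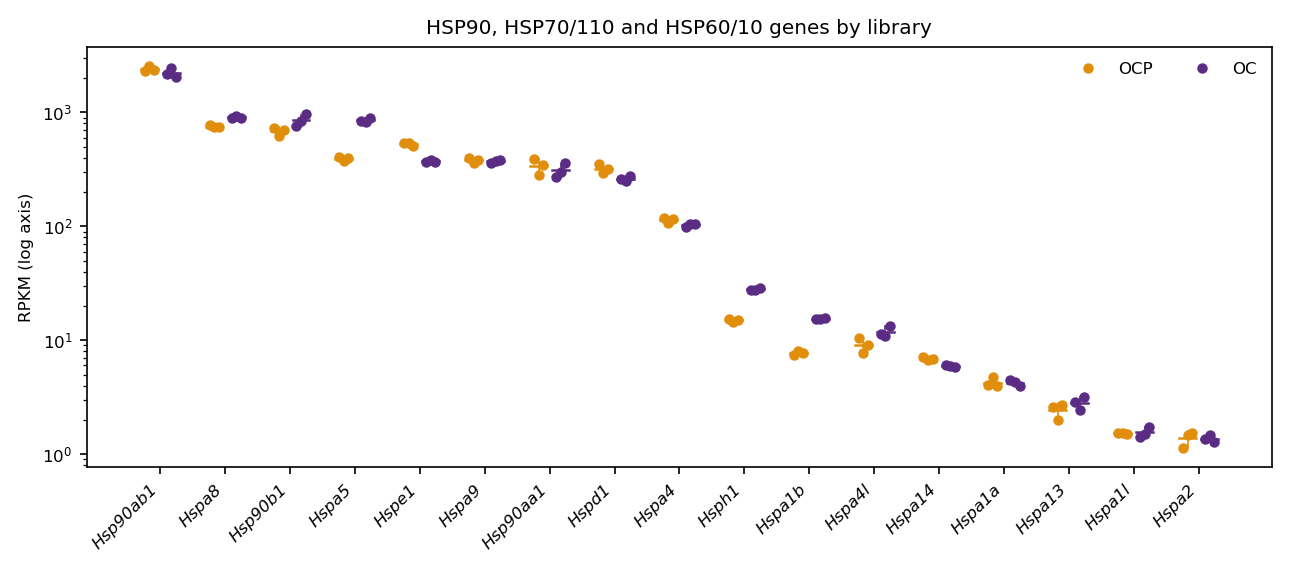
RPKM on a log axis (y) of each tested HSP90, HSP70, HSP110, HSP60 and HSP10 gene (x, from most to least abundant) in each of 3 OCP and 3 OC libraries, with horizontal marks for means and vertical lines for SD. Levels span from 2416 RPKM for Hsp90ab1 to 1.38 RPKM for Hspa2 in OCP, and the groups separate for Hspa5, Hsph1, Hspa1b and Hspe1.

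Hspd1 (HSP60) and Hspe1 (HSP10) encode the chaperonin and its lid that fold proteins in the mitochondrial matrix, and both fell. They lie head to head on chromosome 1 and share 112 exon bases on opposite strands. Hspe1 had OCP values of 539.6, 535 and 511 and OC values of 369, 379 and 371 RPKM, with all OC libraries far below all OCP libraries (log2 fold change -0.50, SE 0.04, adjusted p = 3.2e-05, limma). Hspd1 had OCP values of 349, 294 and 319 and OC values of 259, 252 and 277 RPKM, also without overlap but with a smaller fall (log2 fold change -0.29, SE 0.07, adjusted p = 0.0082). Part of each transcript has a near-identical copy elsewhere, with 71.1% of Hspd1 found in Hspd1-ps3, which had 9.63 ± 0.795 RPKM (OCP) and 7.42 ± 1.11 RPKM (OC). Their shared promoter region holds a run of heat shock element letters, GAA, TTC and GAA or TTC, GAA and TTC with 2 free bases between each, searched on both strands in the window from 250 bases before to 50 after each RefSeq start. In such windows 0.662% of all 27025 genes had a match, as did 4 of the 66 chaperone genes with a window (Hspd1 and Hspe1 through the same run, Dnajb6 and Hsph1). No mismatch was allowed in these letters. Hspa1a, Hspa1b and Dnajb1 had windows without such a match, which does not show that they lack heat shock elements. The run shared by Hspd1 and Hspe1 is shown with that of Dnajb6, since the first pair fell while Dnajb6 rose. The match of Hsph1, which also rose, is not shown. It began 15 or 36 bases after the RefSeq start, depending on the start used. Capitals mark the matches, and overlapping matches form 1 run in the first sequence.
Hspe1, chr1:55088053-55088082, GRCm38.p6, plus strand: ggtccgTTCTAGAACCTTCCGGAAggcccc
Dnajb6, chr5:29735844-29735873, GRCm38.p6, plus strand: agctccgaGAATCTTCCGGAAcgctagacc

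Sorted by compartment after their values were seen, 5 of 8 genes listed as mitochondrial chaperones fell and 0 rose by limma (median log2 fold change -0.26). There were 0 rises at an unadjusted p under 0.05 and 0 by voom. Over all tested genes 32.1% fell and 23.5% rose. The list left out Dnajc4 and Dnajc28, J-domain genes also known from mitochondria. Neither passed (log2 fold change -0.01 and -0.08, adjusted p = 0.95 and 0.63, limma). The other 3 genes of the list, Hspa9, Dnajc19 and Dnajc30, did not pass, although Dnajc30 did as lower after quantile normalization (adjusted p = 0.018) and without OC replicate 1 (adjusted p = 0.046). Wbscr22 on the other strand overlaps 26.2% of the exon length of Dnajc30 and had 6.88 RPKM in OCP and 5.03 RPKM in OC on average. Dnajc11, a J-domain protein tied to the cristae-shaping complex of the inner membrane, had the largest fall of all tested chaperone genes, with OCP values of 37.9, 39.4 and 36.2 and OC values of 25.6, 25.9 and 24.1 RPKM (log2 fold change -0.57, SE 0.05, adjusted p = 5.6e-05, limma). Dnaja3, the matrix partner of mitochondrial HSP70, fell from 35.5 ± 1.32 RPKM to 27.4 ± 0.937 RPKM and Dnajc15, a J-domain protein of the inner membrane import machinery, from 72.0 ± 3.21 RPKM to 60.8 ± 0.585 RPKM. Dnajc19, of the import motor, had 13.5 ± 1.27 RPKM (OCP) and 13.9 ± 1.13 RPKM (OC) (adjusted p = 0.72). Outside the chosen genes, Grpel1, the exchange factor of mitochondrial HSP70, fell from 136 ± 2.82 RPKM to 95.8 ± 0.786 RPKM (log2 fold change -0.50, SE 0.04, adjusted p = 2.6e-05) and Trap1, the mitochondrial HSP90, from 107 ± 4.19 RPKM to 82.8 ± 2.13 RPKM. Of 8 genes of mitochondrial folding and proteolysis 3 fell and 0 rose (0 at an unadjusted p under 0.05, and 1, Clpb, by voom), and the most abundant, the protease gene Lonp1, had 161 ± 6.18 RPKM (OCP) and 169 ± 4.70 RPKM (OC) (adjusted p = 0.22).

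The ER chaperones went both ways. Of 13 genes listed for products in or on the ER, grouped after their values were seen, 4 rose and 6 fell (median log2 fold change 0.03). Over all tested genes 23.5% rose and 32.1% fell. The counts for the list were 2 and 3 without OCP 3, 3 and 3 without OC 1, 2 and 6 without OCP 2, and 2 and 5 without OC 3. The list left out Dnajc18, a J-domain gene also known from the ER membrane, which rose (log2 fold change 0.34, adjusted p = 0.0096, limma). Besides Hspa5 and Hsp90b1, the luminal J-domain proteins Dnajc10 and Dnajb11 rose. Dnajc10, a disulfide reductase, had OCP values of 15.0, 12.8 and 12.98 and OC values of 16.9, 17.2 and 18.9 RPKM (log2 fold change 0.36, SE 0.07, adjusted p = 0.0037, limma). Dnajb11, the most abundant J-domain protein of the ER, had OCP values of 134, 126 and 129 and OC values of 147, 140.1 and 142 RPKM, a rise of 1.10 times (adjusted p = 0.023) that was lost without OCP 2, OCP 3, OC 1 or OC 3 (adjusted p from 0.053 to 0.085). Dnajc3, which is known to inhibit eIF2alpha kinases, had 19.7 ± 2.24 RPKM (OCP) and 21.5 ± 1.44 RPKM (OC) and did not pass (adjusted p = 0.27), except by voom (adjusted p = 0.043).

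The 6 ER genes that fell were all of the DNAJB and DNAJC classes. Dnajb12 had OCP values of 21.5, 22.5 and 22.8 and OC values of 16.0, 16.1 and 15.6 RPKM (log2 fold change -0.46, SE 0.05, adjusted p = 8.4e-05), and its close relative Dnajb14 fell from 3.85 ± 0.182 RPKM to 2.76 ± 0.13 RPKM. Both are known to work with HSP70 in the disposal of membrane proteins. Dnajc25 fell from 3.76 ± 0.314 RPKM to 2.96 ± 0.12 RPKM. Dnajb9, a target of the unfolded protein response that acts on BiP, fell from 22.4 ± 1.55 RPKM to 19.2 ± 1.07 RPKM (adjusted p = 0.024), which did not pass without OCP 1, OCP 3, OC 1 or OC 2 (adjusted p from 0.0598 to 0.083) under TMM factors (adjusted p = 0.056) or when low genes were kept in (adjusted p = 0.063). Dnajc1 and Dnajc16 fell by 0.20 and 0.18 on the log2 scale, with adjusted p-values of 0.017 and 0.023. The call of Dnajc1 was lost without OCP 3 or OC 1 (adjusted p from 0.059 to 0.064), and that of Dnajc16 without OCP 1, OCP 3, OC 1 or OC 3 (adjusted p from 0.052 to 0.078) and under TMM factors (adjusted p = 0.072).

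Of 14 further genes of ER folding and stress, among them the transcription factor genes Atf4, Ddit3 and Xbp1, 8 rose and 2 fell. Over all tested genes 23.5% rose and 32.1% fell. The median log2 fold change of the list was 0.20. The protein disulfide isomerase gene P4hb rose from 469.7 ± 7.91 RPKM to 983 ± 28.4 RPKM (log2 fold change 1.06, SE 0.04, adjusted p = 5.6e-07) and Ddit3, which encodes the stress factor CHOP, from 45.8 ± 2.30 RPKM to 119.7 ± 6.82 RPKM. Calr, the calcium-binding chaperone calreticulin and the most abundant of the list, had 1565 ± 136 RPKM (OCP) and 1524 ± 130.4 RPKM (OC) (adjusted p = 0.71). Herpud1, a component of ER-associated degradation, fell from 19.7 ± 0.71 RPKM to 13.7 ± 0.782 RPKM and Xbp1, the transcription factor of the IRE1 branch, from 99.4 ± 4.30 RPKM to 82.3 ± 0.235 RPKM. The exchange factors of BiP, Hyou1 and Sil1, both rose, from 45.9 ± 2.21 RPKM to 66.6 ± 2.93 RPKM and 24.9 ± 0.398 RPKM to 31.1 ± 2.32 RPKM. The list of ER folding and stress genes summed to 3533 to 3772 RPKM in OCP and 4421 to 4719 RPKM in OC.

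The ER stress response element, CCAAT and CCACG with 9 free bases between them, searched on both strands in the same windows, matched in 0.137% of all 27025 genes and in 3 of 66 chaperone genes, Hspa5, Hsp90b1 and Dnajc3. A second form, ATTGG and CCACG with 1 free base between them, matched in 0.0444% of all genes and in 1 chaperone gene, Dnajb11. That match began 7 bases after the RefSeq start. Windows of 30 bases around the matches of the first form are shown. Of its genes, Hspa5 and Hsp90b1 rose by 1.13 and 0.30, and Dnajc3 changed by 0.12 without passing (log2 scale). Matches are in capitals, 5′ to 3′ on the strand of the gene, GRCm38.p6, and that of Hsp90b1 nearest the start runs in reverse.
Hspa5, chr2:34772020-34772049, plus strand: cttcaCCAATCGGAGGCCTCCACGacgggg
Hsp90b1 far, chr10:86705632-86705661, minus strand: caagcCCAATCGCAAGGAGCCACGcttcgg
Hsp90b1 near, chr10:86705527-86705556, minus strand: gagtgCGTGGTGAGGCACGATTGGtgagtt
Dnajc3, chr14:118937822-118937851, plus strand: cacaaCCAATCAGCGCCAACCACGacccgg

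**Figure D4:**
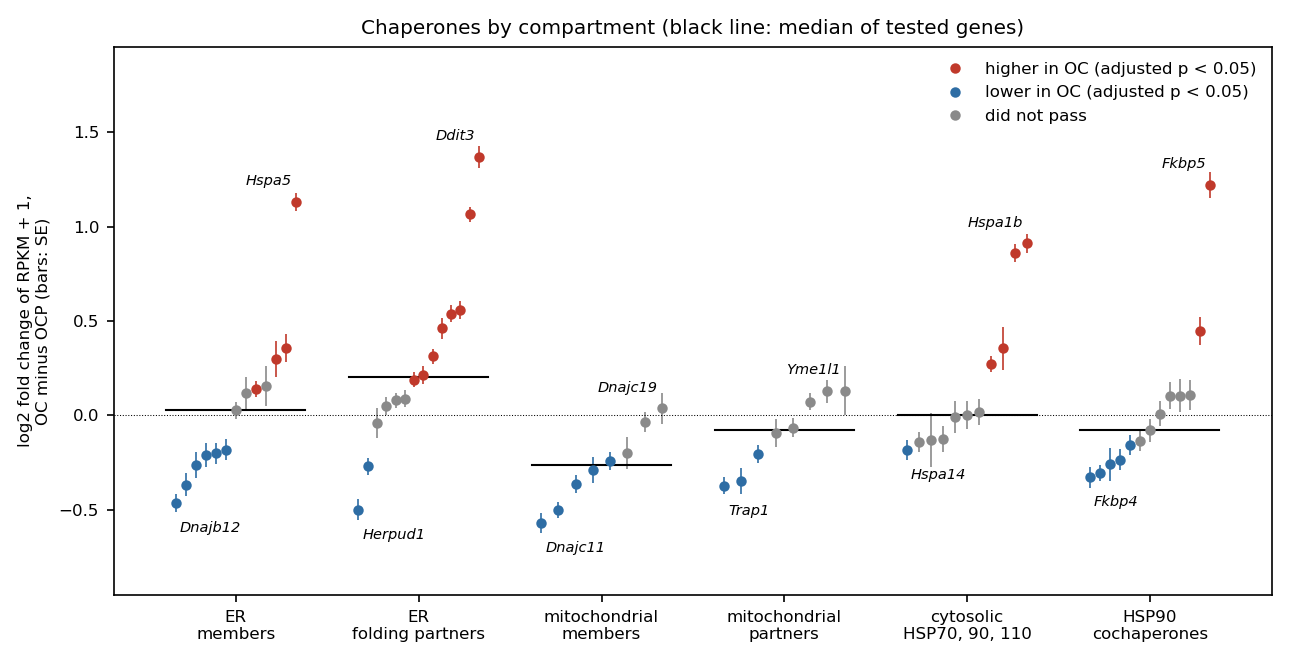
Log2 fold change of RPKM + 1 (y axis, OC minus OCP, bars for SE) for tested chaperone genes of the ER, mitochondrion and cytosol beside partner genes of each compartment (x axis), with black lines for the median of each set and the lowest and highest gene named. The listed mitochondrial chaperones lie below 0 apart from Dnajc19 at 0.04, and the ER sets span from -0.50 to 1.37.

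All 4 DNAJA genes had lower values in every OC library than in any OCP library, as did 36.0% of all tested genes. By limma 3 passed as lower (Dnaja3, above, among them), as did 32.1% of all tested genes. Dnaja2, the most abundant of this class, had OCP values of 125, 109 and 116 and OC values of 100.5, 105 and 108 RPKM and did not pass (adjusted p = 0.053), except without OCP replicate 2 (adjusted p = 0.0198) and with a mean of at least 5 RPKM (adjusted p = 0.042). Dnaja1 fell from 45.7 ± 4.31 RPKM to 39.1 ± 2.23 RPKM (log2 fold change -0.22, SE 0.07, adjusted p = 0.037, limma), a call that was lost without OCP 1, OCP 3, OC 1 or OC 2 (adjusted p from 0.074 to 0.12), under TMM factors (adjusted p = 0.0799) and after quantile normalization (adjusted p = 0.16). It was also lost when low genes were kept in (adjusted p = 0.096), in plain limma (adjusted p = 0.051) and under the replicate block (adjusted p = 0.052). The pseudogenes Gm15542, Gm6335 and Gm7816 align with Dnaja1 over 1194 bases at 97.1% to 99.4% identity. On average they had 17.1, 16.9 and 5.84 RPKM in OCP and 14.8, 12.0 and 4.56 RPKM in OC. Smu1 on the other strand shares 608 exon bases with Dnaja1 and had 60.4 RPKM in OCP and 50.1 RPKM in OC on average. Dnaja4 fell from 2.88 ± 0.339 RPKM to 2.10 ± 0.0961 RPKM, but 44.1% of its exon length overlaps Wdr61 on the other strand, which had 6.55 ± 0.446 RPKM (OCP) and 5.17 ± 0.214 RPKM (OC).

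Of 9 tested DNAJB genes 2 rose (22.2%) and 5 fell (55.6%), against 23.5% and 32.1% of all tested genes. There were 3 falls without OCP 3 and without OC 2. With a mean of at least 5 RPKM there were 3 falls among 5 genes tested, and 0 chaperone calls were lost. There was 1 rise, Dnajb6, without OCP 2, OCP 3, OC 1 or OC 3. Dnajb6, which holds back the aggregation of polyglutamine proteins, had OCP values of 17.6, 19.0 and 19.2 and OC values of 26.2, 26.6 and 26.1 RPKM. The groups were well apart, and this was the largest rise among the tested J-domain genes (log2 fold change 0.48, SE 0.05, adjusted p = 0.000103). Dnajb1, the heat-inducible HSP40 that partners HSP70, went the other way, with OCP values of 29.1, 30.04 and 32.3 and OC values of 26.2, 26.3 and 25.4 RPKM (log2 fold change -0.22, SE 0.05, adjusted p = 0.0072). Dnajb5 fell from 3.01 ± 0.146 RPKM to 2.41 ± 0.141 RPKM (adjusted p = 0.015), which was lost without OCP 3 or OC 2 (adjusted p from 0.055 to 0.062). Dnajb2 and Dnajb4 had 3.33 ± 0.157 RPKM (OCP) and 3.81 ± 0.23 RPKM (OC), and 2.78 ± 0.436 RPKM (OCP) and 3.10 ± 0.42 RPKM (OC), and neither passed, except Dnajb2 under TMM factors (adjusted p = 0.038) and by voom (adjusted p = 0.032).

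Of 23 tested DNAJC genes 3 rose, 9 fell and 11 did not pass, where 23.5% of all tested genes rose and 32.1% fell. By voom 6 rose and 9 fell of 24, against 4266 and 3961 of all 15802 genes tested. Dnajc8, a nuclear spliceosome-associated protein and the most abundant of the class, had OCP values of 136, 148 and 144 and OC values of 132, 147 and 123 RPKM, with overlapping groups (adjusted p = 0.28). After Dnajc11, Dnajc17 had the largest fall. It encodes a nuclear protein of pre-mRNA splicing and had OCP values of 44.5, 49.1 and 48.6 and OC values of 31.9, 34.7 and 31.4 RPKM (log2 fold change -0.52, SE 0.06, adjusted p = 0.00018). Its processed pseudogene Gm6257, which covers 90.5% of the transcript, went from 0.169 ± 0.0652 RPKM to 1.73 ± 0.16 RPKM. Dnajc7, a cochaperone with tetratricopeptide repeats that binds both HSP70 and HSP90, fell from 45.2 ± 1.58 RPKM to 35.1 ± 1.80 RPKM and Dnajc12 from 4.10 ± 0.225 RPKM to 3.16 ± 0.0636 RPKM. Dnajc5, the cysteine string protein of regulated exocytosis, rose from 4.60 ± 0.169 RPKM to 6.08 ± 0.361 RPKM (log2 fold change 0.34, SE 0.06, adjusted p = 0.0021) and Dnajc18 from 2.52 ± 0.34 RPKM to 3.46 ± 0.265 RPKM. Dnajc9, a histone chaperone, fell from 18.3 ± 1.47 RPKM to 15.4 ± 0.597 RPKM (adjusted p = 0.016), which was lost without OCP 3 or OC 2 (adjusted p from 0.051 to 0.059). The 11 that did not pass had log2 fold changes from -0.20 (Dnajc30) to 0.17 (Dnajc2). The call of Dnajc2 was gained by voom (adjusted p = 0.022) and without OC replicate 1 (adjusted p = 0.028).

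Partners of the HSP70 cycle were split. Of 13 tested exchange factors and adaptors 4 rose (30.8%) and 7 fell (53.8%), against 23.5% and 32.1% of all tested genes. Under TMM factors and by voom the split turned to 5 higher and 4 lower, with the calls of Stub1, Bag6 and Stip1 lost and that of Sugt1 gained. The list summed to 968 to 986 RPKM in OCP and 961 to 989 RPKM in OC. Bag1, the most abundant, rose from 185 ± 7.76 RPKM to 223 ± 7.27 RPKM (log2 fold change 0.27, SE 0.05, adjusted p = 0.0018). Bag3, the stress-inducible member that routes clients to autophagy, fell from 63.2 ± 2.44 RPKM to 45.8 ± 0.498 RPKM (log2 fold change -0.45, SE 0.04, adjusted p = 8.4e-05). Hspbp1, the exchange factor caught by the Hspb prefix, had OCP values of 12.2, 12.0 and 12.2 and OC values of 9.30, 7.84 and 7.72 RPKM and fell without overlap (log2 fold change -0.50, SE 0.07, adjusted p = 0.00054). Hspbap1 had 1.43 ± 0.0778 RPKM (OCP) and 1.35 ± 0.0142 RPKM (OC) and did not pass (adjusted p = 0.56).

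TRiC is a double ring in which each subunit gene contributes its own protein. Of 7 tested Cct genes 3 fell (42.9%) and 0 rose by limma, against 32.1% and 23.5% of all tested genes. Their median log2 fold change was -0.09, with 0 rises at an unadjusted p under 0.05 and 1, Cct4, by voom. Cct3 had OCP values of 97.0, 96.4 and 94.5 and OC values of 74.7, 71.0 and 72.0 RPKM, with all OC libraries well below all OCP libraries (log2 fold change -0.40, SE 0.04, adjusted p = 0.00011, limma), and passed under all 14 alternatives. Cct5 had OCP values of 167, 155 and 159 and OC values of 144, 145 and 143 RPKM and Cct7 OCP values of 65.5, 67.5 and 65.7 and OC values of 60.3, 62.9 and 57.0 RPKM, with log2 fold changes of -0.15 and -0.14 (adjusted p = 0.017 and 0.039). Cct5 did not pass without OCP 3, OC 1 or OC 3 (adjusted p from 0.0501 to 0.053), under TMM factors (adjusted p = 0.081) or by voom (adjusted p = 0.086). Cct7 did not pass without OCP 1, OCP 2, OCP 3, OC 1 or OC 3 (adjusted p from 0.052 to 0.14), under TMM factors (adjusted p = 0.196), after quantile normalization (adjusted p = 0.31), by voom (adjusted p = 0.16), when low genes were kept in (adjusted p = 0.076) or in plain limma (adjusted p = 0.063), and its call held in 4 of 14 alternatives. The number of subunits that fell was 1, Cct3, under TMM factors, by voom, and without OCP 3, OC 1 or OC 3.

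The remaining subunits did not pass. Cct2, the most abundant, had OCP values of 203, 188 and 188 and OC values of 203, 199 and 201 RPKM (adjusted p = 0.29). Cct6a had 76.8 ± 4.11 RPKM (OCP) and 74.2 ± 1.92 RPKM (OC) and Cct8 48.9 ± 4.03 RPKM (OCP) and 45.9 ± 2.91 RPKM (OC). Cct4 had OCP values of 14.5, 11.8 and 11.2 and OC values of 14.5, 12.98 and 15.3 RPKM, the lowest level of the tested subunits, and passed as higher without OCP replicate 1 (adjusted p = 0.015) and by voom (adjusted p = 0.016). Levels per length depend on the exon model: the table gives 4201 bases for Cct4 and 6778 for Cct7, against 1962 for Cct2, and RPKM divides reads by that length. Cct6b and Cct8l1, which are known from testis, stayed under 0.2 RPKM. Tcp1, the subunit outside the naming rule and the most abundant gene of its partner list over the 6 libraries, had 105 ± 6.12 RPKM (OCP) and 111 ± 4.06 RPKM (OC) (adjusted p = 0.24), and it passed as higher after quantile normalization (adjusted p = 0.049) and by voom (adjusted p = 0.047).

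Of 10 TRiC and prefoldin partners (Tcp1 included) 7 fell and 0 rose by limma (0 at an unadjusted p under 0.05, and 1, Tcp1, by voom), where 32.1% of all tested genes fell and 23.5% rose. The median log2 fold change was -0.27, and the list summed to 559.9 to 587 RPKM in OCP and 484 to 505 RPKM in OC. Pdcl3, a phosducin-like cofactor of TRiC, had OCP values of 68.9, 67.0 and 71.9 and OC values of 39.8, 41.8 and 41.8 RPKM (log2 fold change -0.74, SE 0.05, adjusted p = 8.1e-06, limma). Txndc9, another phosducin-like cofactor, fell from 12.3 ± 0.864 RPKM to 9.45 ± 0.52 RPKM. Prefoldin hands actin and tubulin to TRiC, and its subunit genes Pfdn2, Pfdn4, Pfdn5 and Pfdn6 fell, for example Pfdn2 from 109.9 ± 4.30 RPKM to 91.3 ± 2.98 RPKM. Pfdn1 and Vbp1 had 65.7 ± 7.82 RPKM (OCP) and 66.3 ± 5.02 RPKM (OC), and 3.30 ± 0.546 RPKM (OCP) and 3.43 ± 0.319 RPKM (OC), and did not pass.

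**Figure D5:**
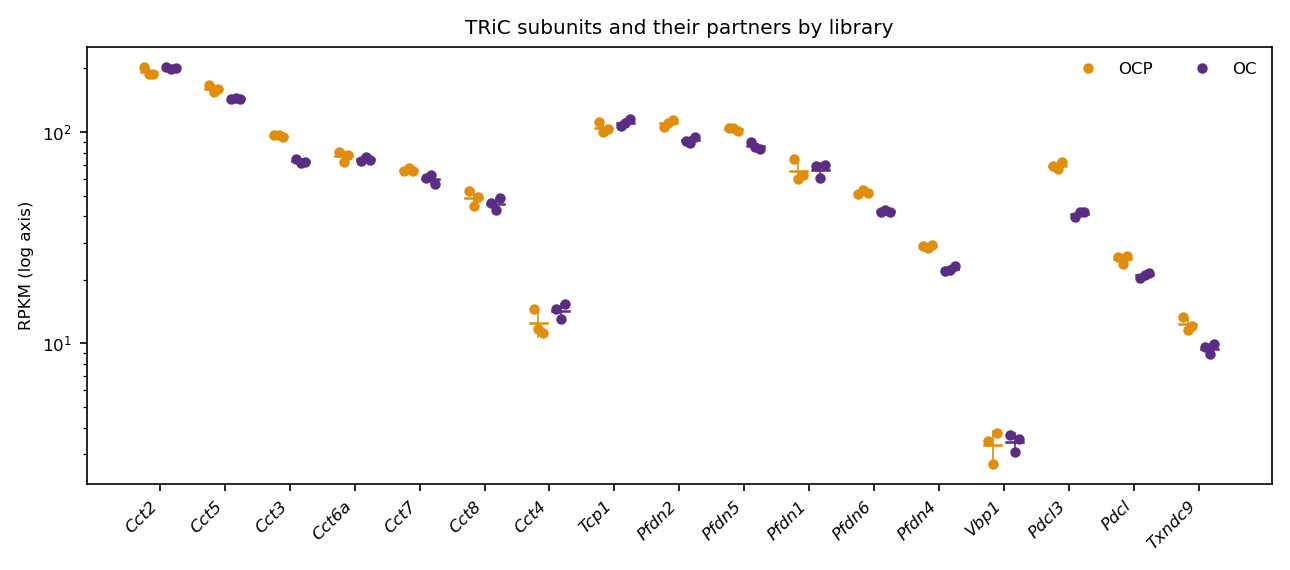
RPKM on a log axis (y) of tested Cct genes, Tcp1, prefoldin subunit genes and phosducin-like cofactor genes (x) in each of 3 OCP and 3 OC libraries, with horizontal marks for means and vertical lines for SD. Cct3 and Pdcl3 separate by group, at 96.0 and 69.3 RPKM in OCP against 72.6 and 41.2 RPKM in OC, and Cct2 does not.

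Small heat shock proteins hold unfolded proteins without ATP and are abundant in muscle and lens. The 8 genes listed for them here were low. Among these 8 genes the filter passed only Hspb11, whose product is a component of intraflagellar transport, at 2.33 ± 0.157 RPKM (OCP) and 2.38 ± 0.172 RPKM (OC) (adjusted p = 0.84, limma). The summed level of the 8 genes, Hspb11 included, was 3.48 to 4.04 RPKM in OCP and 3.82 to 4.57 RPKM in OC. Cryab, a small heat shock protein gene that the prefixes missed, had 3.98 RPKM in OCP and 4.19 RPKM in OC on average. It overlaps 30.2% of the exon length of Hspb2 on the other strand. Hspb1, which encodes the small heat shock protein HSP27, had OCP values of 0.414, 0.0977 and 0.158 and OC values of 0.166, 0.35 and 0.305 RPKM, with wide overlap. All 18 untested chaperone genes were at or under 0.88 RPKM in every library, and 7 of them under 0.1 RPKM. Among the 18, Dnajc27 had OCP values of 0.423, 0.353 and 0.335 and OC values of 0.576, 0.517 and 0.88 RPKM, above OCP in each OC library, and passed by voom (log2 fold change 0.85, adjusted p = 0.0022). Dnajc22 had OCP values of 0, 0.0272 and 0 and OC values of 0.278, 0.374 and 0.213 RPKM and passed with no filter (log2 fold change 0.35, adjusted p = 0.0058). At 1 kb of exon, 3 reads are worth 0.0712 to 0.0903 RPKM, a floor that covers counting error only. Chaperone and partner genes outside the naming rule (the most abundant gene and the largest changes of each group) were named after their values were seen, as were the groups by compartment.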

How the data were processed

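Poly(A) RNA of 6 libraries was sequenced with a stranded kit, per the labels' protocols. The submitters' processing notes name Trimmomatic 0.36, STAR 2.5.3a and featureCounts, and the build GRCh38, although the coordinates are those of mouse: 66 of 81 chaperone genes have the same ends in GENCODE M21 (GRCm38). Neither labels nor headers state how strand or multi-mapping reads were handled. Gm15459 and Gm26825, and Hspa1l and Gm10501, overlap on opposite strands and held nearly the same reads in every library. Strand therefore did not separate the reads of these pairs, and values of genes that overlap on opposite strands may share reads. The deposited values are RPKM per gene, per the file headers, made by the authors from reads assigned to genes. RPKM times length gave whole reads for 100.0% of values (tolerance 0.01 reads), with totals from 33219178 to 42121216.

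Values were tested as log2(RPKM + 1) with limma 3.58.1 (R 4.3.3; trend and robust options, statmod 1.5.0), two-sided, with Benjamini-Hochberg adjustment over the 12301 genes that reached 1 RPKM or more in 3 or more of the 6 libraries, at a threshold of 0.05. The scale understates changes of low genes. The code was tested on simulated data. Near-identical copies were sought with blastn 2.17.0 (alignments of 100 bases or more with identity of 95% or more), and promoter windows came from RefSeq (GRCm38.p6; 66 of 81 genes matched). Alternatives were another pseudocount, no filter and a stricter one, TMM factors, quantile normalization, plain limma, a replicate block, voom on recovered reads and leaving out each library.

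The genes, lists and tests were chosen with earlier results of these data known. Named genes were all tested HSP70, HSP90, HSP60 and TRiC genes, the most abundant gene of each other group and up to 4 rises and 4 falls, and for partner lists up to 2 of each.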

Additional observations from a re-analysis of the deposited data

How the results depend on the processing

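No called chaperone gene turned direction under any of the 14 alternatives. Over the 44 named genes, 535 pairs of gene and alternative kept direction and side of the threshold, 44 lost the call, 8 gained it and 19 changed sign, the last all in genes without a call. With a mean of at least 5 RPKM, 4549 of 7228 genes passed against 6843 of 12301, with fewer genes tested. Voom called 17 chaperone genes higher against 11, with 69 tested, where 4266 of all 15802 genes were higher. TMM factors gave 12 higher and 18 lower chaperone genes, against 3323 and 3390 of all 12303 genes. Leaving out 1 library gave 8 to 12 higher and 15 to 25 lower chaperone genes. Over all 11857 to 12103 genes tested it gave 2211 to 2936 higher and 3259 to 3671 lower. The lowest number of falls, 15 chaperone genes and 3259 of all genes, came without OCP replicate 3. The cause was not tested. Near 0, the log2 fold change became 0.0044 (TMM) and 0.023 (quantile) for Cct6a, 0.022 (TMM) and 0.043 (voom) for Hspa2, 0.018 (TMM) and 0.014 (voom) for Hspa9, and after quantile normalization -0.031 for Hspa1a, -0.064 for Hspa1l and -0.052 for Hspb11. Without 1 library it ranged from -0.037 to 0.067 for Hspa1a, -0.032 to 0.057 for Hspa1l, -0.085 to 0.037 for Hspa2 and -0.014 to 0.059 for Hspb11. Deviations of same-numbered libraries from their group means correlated at -0.115, 0.143 and 0.0142. With 3 libraries per group and no reference value, these cannot settle whether replicate numbers pair the libraries. With the replicate block, 6678 genes passed, among them 11 chaperone genes higher and 23 lower, and 28 of the named genes against 29, with Dnaja1 the one chaperone call lost. Depth limits the low genes, as 3 reads per kb of exon are worth 0.0712 to 0.0903 RPKM.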
